A study of Drosophila melanogaster with 72 samples.

Results

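The genes described here are 31 Drosophila melanogaster genes listed as midgut serine proteases, out of 23932 features in the count tables. They are 16 Jonah (Jon) genes, 11 trypsin genes named by Greek letter from alphaTry to lambdaTry, and yip7, Ser6, Ser8 and Ser12. They were taken as a fixed list of FlyBase symbols, matched to the FlyBase gene identifiers of the tables, and all 31 were found in each of the 3 tables. The tissue in which each is expressed was not tested here.

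Trypsins and the chymotrypsin-like proteases are secreted by the absorptive cells of the midgut, the enterocytes, and cut dietary protein in the gut lumen. Trypsins cut after lysine or arginine, while chymotrypsin-like enzymes prefer bulky or hydrophobic residues. The genes lie in tandem groups that arose by duplication, and their RNA level follows feeding, diet and the state of the gut.

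RNA was measured in whole females of 9 genotype and age combinations, in 72 libraries. Each combination was profiled as total RNA, RNA under single ribosomes (monosome fraction) and RNA under several ribosomes (polysome fraction) from a sucrose gradient, all after poly(A) selection. At 15 d of age, Lsp2[A10] and Lsp2[B14], each alone or together with Thor[2], had 3 biological replicates, and both Lsp2 alleles alone were sampled again at 2-3 d (young flies). The other lines, at 15 d with 2 biological replicates each, carried Lpp[TS] with Lsp2, with Rheb or with w1118. All 4 of the 15 d allele lines thus carry an Lsp2 allele, and all 3 Lpp[TS] lines carry Lpp[TS]. Lsp2 encodes a larval serum protein, Thor the translation repressor 4E-BP, and Rheb the activator of the growth kinase complex mTORC1. Lpp is the name of a fat body lipoprotein gene, and by fly notation Lpp[TS] drives the construct named after the sign. A whole fly holds every tissue, so in these samples fewer cells of a type and less RNA per cell cannot be told apart.

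Library totals were 15.3 to 39.7 M counts (M, mega) for total RNA, and lower at the bottom end for monosomes, at 5.07 to 21.3 M, and polysomes, at 3.13 to 31.3 M. Levels are given as CPM, a gene's counts scaled to 1 M counts of its library, and changes as log2 values from edgeR's quasi-likelihood fit ± their standard error. A gene was called when its p, adjusted by Benjamini-Hochberg over all genes tested, was at most 0.05. Lsp2 RNA was 7147 ± 761 CPM in Lpp[TS]>Lsp2, 2423 ± 219 in Lpp[TS]>Rheb and 4.86 ± 0.53 in Lpp[TS]>w1118 (SD, n = 2), and Rheb RNA was 923 ± 62.0, against 126 ± 0.35 in Lpp[TS]>w1118. Thor RNA was not lower in the libraries labelled Thor[2] (294 ± 60.9 and 291 ± 29.3 CPM) than in those without the allele (253 ± 35.4 and 272 ± 20.9, SD, n = 3), so "Thor[2]" below refers to the label. Neither Lsp2 allele is named a control in the labels. For Lsp2[A10] at 15 d, Lsp2 RNA was 1.26 ± 1.04 CPM, while Lsp2[B14] had 19.7 ± 28.1, with single libraries from 2.34 to 52.1. The young values were 2.5 ± 0.78 for the A10 allele against 7.5 ± 2.92 for B14 (SD, n = 3). The batch entry of the labels repeats genotype and fraction, and batch and group cannot be told apart.

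In the genome annotation BDGP6.54, 26 of the 31 genes lie in 6 groups whose neighbours are less than 25000 bp apart. The 11 trypsin genes fill 20698 bp of chromosome 2R (2R:11336840-11357537). The gene yip7 lies beside Jon65Ai to Jon65Aiv on 3L (3L:6035216-6054443), and Jon25Bi to Jon25Biii lie on 2L (2L:4949941-4955144). Jon66Ci and Jon66Cii (3L:8391540-8393649), Jon99Ci to Jon99Ciii (3R:29922216-29926189) and Jon99Fi with Jon99Fii (3R:30487016-30489895) form the smaller groups, and Ser12, Jon44E, Ser8, Jon74E and Ser6 stand alone. The genes are short: 25 have 1 exon, and the median summed exon length is 901 bp, against 1734 bp over all protein-coding genes. How reads shared by near-identical copies were assigned is not given in the sources used here, so the split of counts within a group is uncertain. All 839 bp of Ser8 lie opposite ATP8A, 49 bp of Jon44E opposite CG8586 and 15 bp of deltaTry opposite CG13202. These are overlaps of whole gene spans, and whether exons overlap was not checked. The strand setting of the counting is not given, so where exons overlap, reads of these opposed genes may not be told apart.

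Together the 31 genes took 1.46 to 2.81% of the counts in total RNA of the 15 d allele lines, 1.14 to 2.14% in young flies and 0.377 to 0.586% in the Lpp[TS] lines. A few genes held most of it. Per kilobase of exon, mean total RNA levels in the 15 d allele lines were highest for Jon65Aiv (4250 CPM per kb), yip7 (3614), alphaTry (3241), Jon65Aiii (2970.5) and Jon99Cii (1989), which made up 67.4% of the genes' sum. In the Lpp[TS] lines the order began with alphaTry (1569), Jon65Aiv (668), yip7 (580) and Jon25Biii (533). In young flies yip7 (2761), Jon65Aiv (2664) and alphaTry (2457) led. At the other end, gammaTry had at most 37 counts in any of 36 libraries of the 15 d allele lines and at most 4 and 3 counts in a library of the Lpp[TS] and young tables.

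**Figure D1:**
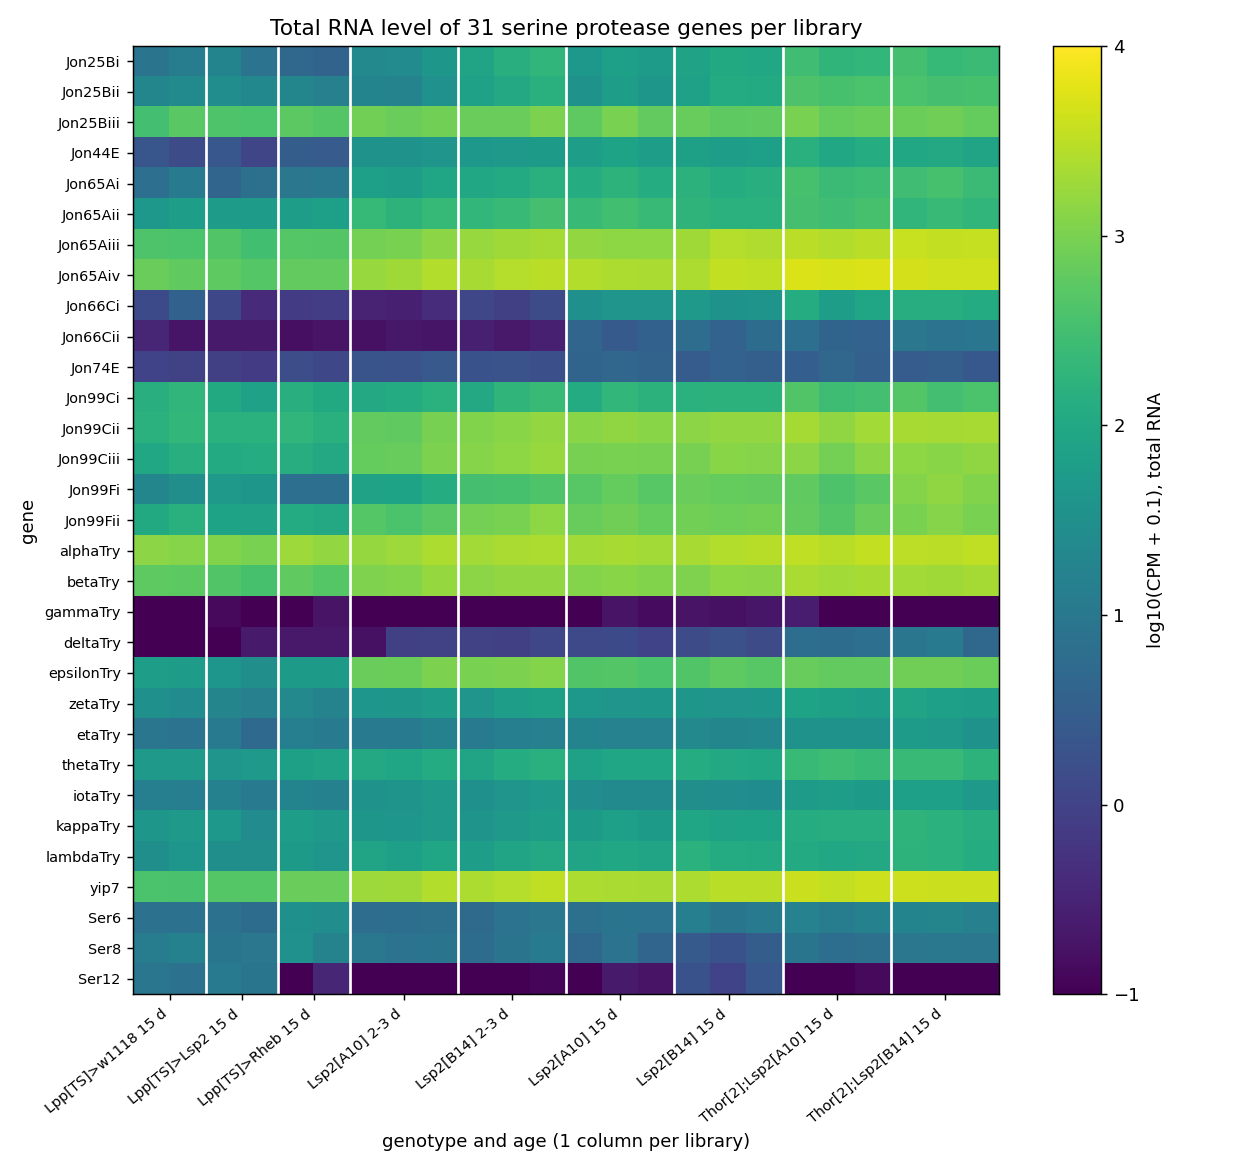
Total RNA level of the 31 genes, as log10(CPM + 0.1) by colour, with 1 row per gene and 1 column per library, grouped by genotype and age between white lines. Jon65Aiv, yip7 and alphaTry are bright in every library, Jon66Ci and Jon66Cii are darker in young flies and in the Lpp[TS] lines than in the 15 d allele lines, and Ser12 is above 0.9 CPM only in Lpp[TS]>w1118, Lpp[TS]>Lsp2 and Lsp2[B14] at 15 d.

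The comparison of flies with and without Thor[2] at 15 d asks how RNA levels differ with that allele in each Lsp2 background. Most of the protease genes had higher total RNA in the libraries labelled Thor[2]. In Lsp2[A10], 25 of 30 tested genes were higher and none was lower, with a median change of 1.02, against 0.04 over all 10354 genes tested. In Lsp2[B14], 27 were higher and Ser12 was lower, with a median of 0.79 against 0.03. The background was wide, with 66.8% of all genes called in Lsp2[A10] (34.4% higher) and 69.2% in Lsp2[B14] (35.2% higher). The 25 genes called in Lsp2[A10] were all called higher in Lsp2[B14] too. GammaTry, too low to test, is the remaining member.

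Among the Jonah genes, Jon25Bii rose most. Its total RNA was 34.9, 62.4 and 43.3 CPM in the 3 libraries of Lsp2[A10] and 396, 343 and 377 in those of Thor[2];Lsp2[A10], a 9.12-fold change (log2 3.19 ± 0.23, adjusted p = 3.22e-07). In Lsp2[B14] it was 71.6, 116 and 116 CPM, and 389, 330.2 and 345 with Thor[2] (log2 1.95 ± 0.21, adjusted p = 4.80e-06). In both backgrounds every Thor[2] library lay above every library without it, by more than the spread between replicates. Its neighbour Jon25Bi rose from 46.6, 67.4 and 56.7 to 292, 189.9 and 208 CPM in Lsp2[A10] (log2 2.22 ± 0.22, adjusted p = 2.35e-06) and by 1.64 ± 0.21 in Lsp2[B14] (adjusted p = 1.66e-05). The third gene of this group, Jon25Biii, is the most abundant of the 3 and was not called in either background (0.34 ± 0.20, adjusted p = 0.143, and 0.40 ± 0.20, adjusted p = 0.0901).

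Jon66Ci went from 32.4, 40.1 and 40.4 CPM to 125, 62.4 and 89.3 in Lsp2[A10] (log2 1.49 ± 0.21, adjusted p = 3.43e-05). In Lsp2[B14] it went from 49.7, 35.8 and 37.9 to 131, 132 and 122 CPM (log2 1.78 ± 0.21, adjusted p = 8.09e-06). The groups did not overlap in either background. The most abundant Jonah gene, Jon65Aiv, was at 2704, 2385 and 2346 CPM in Lsp2[A10] and at 5446, 4991 and 5456 with Thor[2] (log2 1.30 ± 0.12, adjusted p = 1.70e-06), and it rose by 0.70 ± 0.12 in Lsp2[B14] (adjusted p = 0.000166). Jon65Aiii, Jon65Ai, Jon99Ci and Jon44E rose by 1.18, 1.29, 1.30 and 1.06 on the log2 scale in Lsp2[A10], and by 0.73, 1.22, 1.41 and 0.68 in Lsp2[B14]. Jon74E, at a few CPM throughout, was not called (0.00 ± 0.22, adjusted p = 0.996 in Lsp2[A10], and −0.07 ± 0.22, adjusted p = 0.8 in Lsp2[B14]).

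All 10 tested trypsin genes rose in both backgrounds. The abundant alphaTry and betaTry rose by 0.81 ± 0.11 and 1.08 ± 0.11 in Lsp2[A10], and by 0.44 ± 0.11 and 0.79 ± 0.11 in Lsp2[B14]. ThetaTry was at 74.1, 87.2 and 86 CPM in Lsp2[A10] and at 229.6, 274 and 229 with Thor[2] (log2 1.77 ± 0.16, adjusted p = 1.24e-06). The 3 Thor[2] libraries lay above the other 3 without overlap. DeltaTry showed the largest trypsin changes, 2.69 ± 0.30 in Lsp2[A10] and 2.65 ± 0.29 in Lsp2[B14], with a low level of 1.33, 1.67 and 1.36 CPM in Lsp2[B14] against 9.09, 10.8 and 4.65 with Thor[2]. LambdaTry rose least, by 0.45 (adjusted p = 0.015) and 0.37 (adjusted p = 0.0362). The chymotrypsin-like yip7 was at 2399.8, 2314 and 2174 CPM in Lsp2[A10] and 4043, 3537 and 4149.8 with Thor[2] (log2 0.97 ± 0.11, adjusted p = 4.18e-06), again with no overlap, and rose by 0.65 ± 0.11 in Lsp2[B14].

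Scaling to library totals in place of the TMM factors put the all-gene median at −0.16, from 0.04, in Lsp2[A10] and at −0.11, from 0.03, in Lsp2[B14]. Under it 20 and 24 of the genes were called higher. Jon65Aii, Jon66Cii, Jon99Ciii, Ser8 and lambdaTry were the genes no longer called in Lsp2[A10], and Jon99Ciii, Jon99Fii and lambdaTry those in Lsp2[B14]. Leaving out 1 library at a time gave 22 to 25 calls in Lsp2[A10] and 26 to 27 in Lsp2[B14].

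Other genes of digestion were counted by list. Of 14 tested genes of a list of other midgut proteases and lipases, 11 were higher and 0 lower in Lsp2[A10] with Thor[2] (CG12374 1.86 ± 0.16, CG18180 2.11 ± 0.25), and 6 were higher and 1 lower in Lsp2[B14]. Of 13 carbohydrases, the maltases and amylases that cut sugars and starch, 2 were higher and 6 lower in Lsp2[A10] (Mal-A7 −2.45 ± 0.43), and 1 was higher and 5 lower in Lsp2[B14]. Of 8 regulators known to act on digestive enzyme genes, 1 was higher and 6 lower in Lsp2[A10], and 0 and 7 in Lsp2[B14]. They include the activin receptor babo (−1.06 ± 0.11 and −1.18 ± 0.11), the Smad protein Smox (−0.72 ± 0.10 and −0.88 ± 0.10) and the sugar-sensing factor Mondo (−0.87 ± 0.15 and −1.15 ± 0.15).

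Markers of enterocytes moved in both directions. Of 5 tested, 2 were higher and 1 lower in Lsp2[A10], and 2 were higher and 3 lower in Lsp2[B14]. Their summed total RNA was 342 to 363 CPM in Lsp2[A10] and 339.9 to 385 with Thor[2], and 492 to 511 in Lsp2[B14] against 339 to 377 with Thor[2]. Within the list, mex1, a midgut gene, rose by 1.81 and 1.42 on the log2 scale, and the brush border myosin Myo31DF was called lower, at −0.46 and −1.03. Of the enteroendocrine markers, 4 of 8 were higher and 1 lower in Lsp2[A10], with a summed level of 129 to 157 CPM against 96.3 to 109.7, and 5 were higher and 1 lower in Lsp2[B14] (128 to 147 against 97.7 to 117). Muscle markers were higher for 3 of 4 in Lsp2[A10] (1161 to 1373 CPM against 751 to 961), and 3 were higher and 1 lower in Lsp2[B14] (929 to 1081 against 914 to 1117.7). Fat body markers were higher for 4 of 5 and 2 of 5, and both spermatheca markers were higher in both backgrounds (144 to 222 CPM against 58 to 95.6 in Lsp2[A10]). Their part in the protease changes was not tested.

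The size of the Thor[2] change differed between the Lsp2 backgrounds for 3 of 30 tested genes, as tested by the interaction of allele and Thor[2], against 4.1% of all genes. Jon25Bii changed more in Lsp2[A10], by 1.24 ± 0.30 (adjusted p = 0.0333). Jon99Fi changed more in Lsp2[B14] (−1.0 ± 0.23, adjusted p = 0.0261), and so did Ser8 (−1.54 ± 0.35, adjusted p = 0.0256). For Jon99Fi, total RNA was 513, 644 and 514 CPM in Lsp2[A10] and 595, 398 and 523 with Thor[2], with overlapping groups (log2 0.06 ± 0.16, adjusted p = 0.742). It was 733, 649.8 and 618 CPM in Lsp2[B14] and 1190.1, 1486 and 1104 with Thor[2], without overlap (log2 1.06 ± 0.16, adjusted p = 5.91e-05). Ser8 was at 4.47, 7.8 and 4.25 CPM in Lsp2[A10] against 8.53, 6.43 and 6.96 with Thor[2], and at 2.54, 1.74 and 2.92 in Lsp2[B14] against 9.62, 9.97 and 9.42. The lowest Ser8 values were thus those of Lsp2[B14] without Thor[2], in a gene that lies wholly opposite ATP8A.

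These 3 differences were close to the threshold. None of the 30 genes was called without Lsp2[B14] replicate 2, Thor[2];Lsp2[A10] replicate 2 or 3, or Thor[2];Lsp2[B14] replicate 2. A single gene was called without Lsp2[A10] replicate 2 or Lsp2[B14] replicate 3, and 5 were called without Lsp2[B14] replicate 1. Over all alternatives the interaction ranged from 0.08 to 1.5 for Jon25Bii, where the lowest value belongs to the summed counts of the 3 Jon25B genes, from −1.14 to −0.78 for Jon99Fi and from −1.71 to −1.20 for Ser8.

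Ser12, a serine protease gene on 2L, went the other way. Its total RNA had 43, 26 and 63 counts in the 3 libraries of Lsp2[B14] and 0 in each of the 3 of Thor[2];Lsp2[B14]. Against the limit of 3 counts over that group, it was at least 42.6-fold lower with Thor[2] (adjusted p = 2.55e-05). In Lsp2[A10] it had 0, 3 and 2 counts, and 0, 0 and 1 with Thor[2], at or near that limit.

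**Figure D2:**
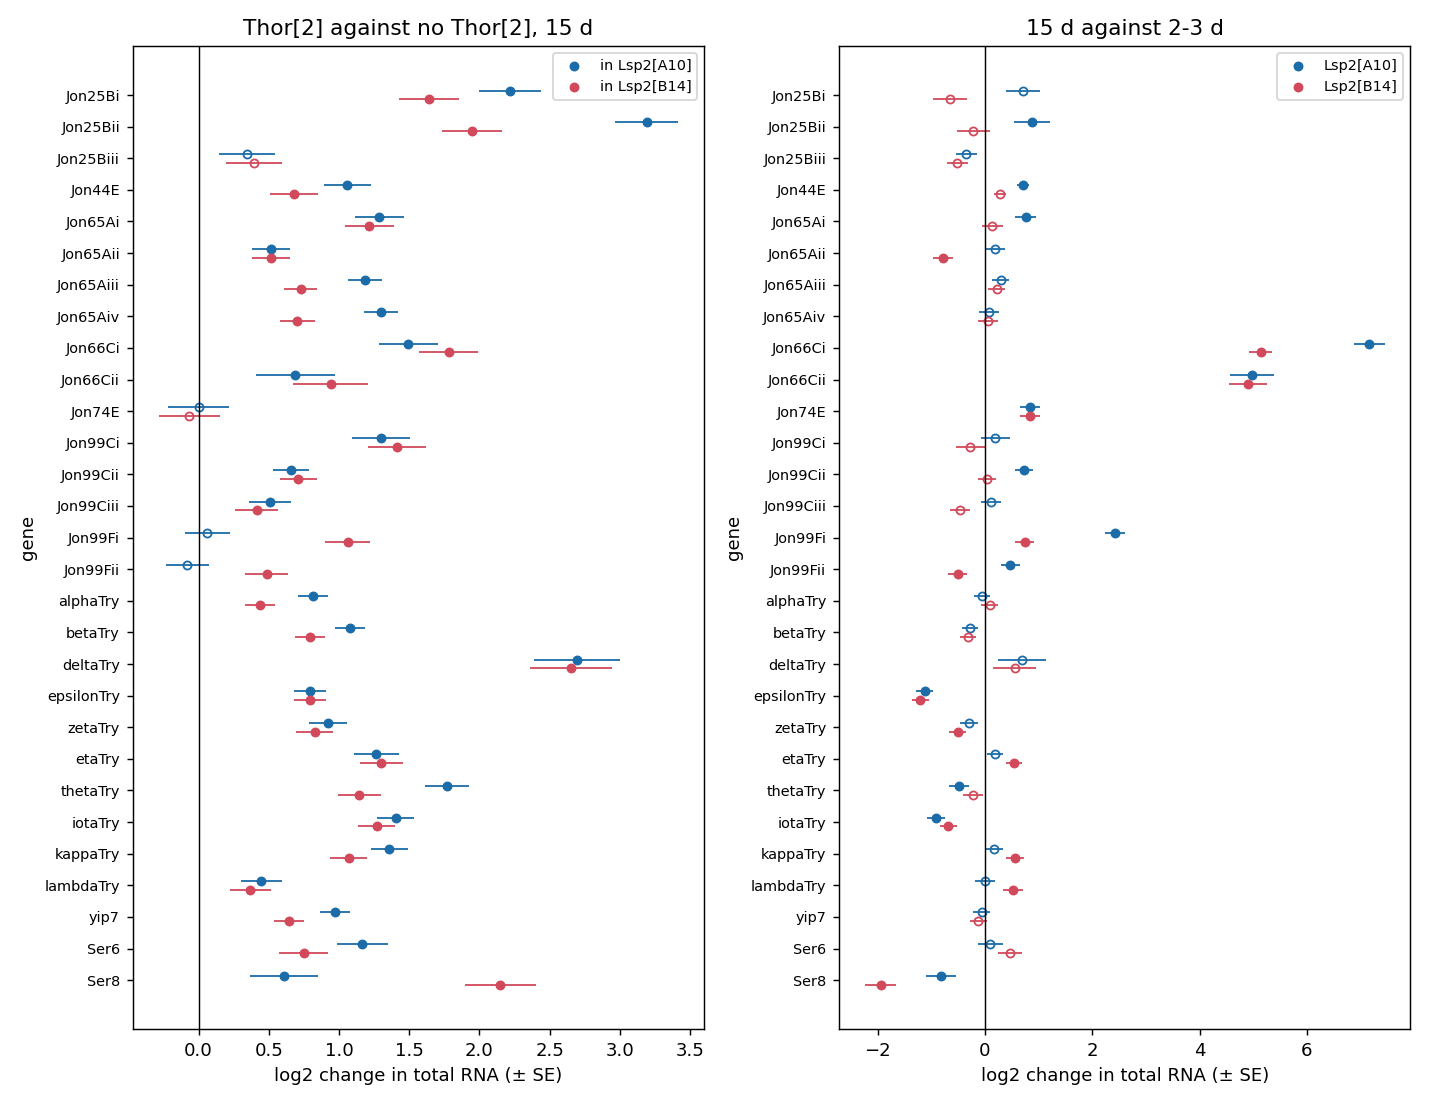
Log2 change in total RNA (horizontal axis, bars ± SE) of each gene except gammaTry and Ser12, for Thor[2] against no Thor[2] at 15 d on the left and for 15 d against 2-3 d on the right. Colours mark the Lsp2 allele, filled points are genes called and open points are not, with Jon25Bii and deltaTry farthest right among the Thor[2] changes and Jon66Ci and Jon66Cii among the age changes.

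Between the Lsp2 alleles without Thor[2] at 15 d, 5 of 30 tested genes differed, against 2.21% of all genes. Jon65Aii and Ser8 were higher in Lsp2[A10], while Jon25Bii, Jon65Aiii and Ser12 were lower. The median change of the 30 genes, A10 relative to B14, was −0.31, against 0.02 over all genes. Jon25Bii, whose values stand above, was at −1.16 ± 0.21 (adjusted p = 0.0112), with no overlap. Over all alternatives it ranged from −1.42 to −0.03, and its call was lost in 4 of 14. Jon65Aiii was at 1544, 1408 and 1435 CPM in Lsp2[A10] and 1978, 2721 and 2554 in Lsp2[B14] (−0.77 ± 0.12, adjusted p = 0.00346). Its neighbour Jon65Aii went the opposite way, at 234, 313 and 240.1 CPM in Lsp2[A10] against 180.2, 153 and 159 (0.63 ± 0.14, adjusted p = 0.0285). Both pairs of groups lay apart without overlap.

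Ser8 was higher by 1.15 ± 0.25 (adjusted p = 0.0319) in Lsp2[A10]. Ser12, with 5 counts over the 3 Lsp2[A10] libraries and 132 over those of Lsp2[B14], was at −4.48 ± 0.67 (adjusted p = 0.00502). The count of 5 became 3 without Lsp2[A10] replicate 3 or Lsp2[B14] replicate 3. DESeq2 called 11, and 392 of all genes against 229 with edgeR. Summing the counts of the Jon65A genes put Jon65Aii and Jon65Aiii at a joint −0.46, which was not called (adjusted p = 0.0549). The enterocyte markers, 1 of 5 called lower, summed to 342 to 363 CPM in Lsp2[A10] and 492 to 511 in Lsp2[B14], and the part of this in the protease differences was not tested.

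With Thor[2], the alleles differed for 3 of 30 genes, against 4.16% of all genes. Jon65Aii was higher in Thor[2];Lsp2[A10], with 328, 299 and 351 CPM against 196, 248 and 194 (0.63 ± 0.14, adjusted p = 0.0178). Jon99Fi, whose values stand above, was lower (−1.30 ± 0.16, adjusted p = 0.000396), and so was Jon99Fii, with 623, 462 and 707 CPM against 970.1, 1233 and 996 (−0.82 ± 0.15, adjusted p = 0.00749). In all 3 genes the groups did not overlap. Jon25Bii, lower in A10 without Thor[2], was at 0.08 ± 0.21 here (adjusted p = 0.87). The count was 7 without Thor[2];Lsp2[B14] replicate 3 and 5 with DESeq2, which called 664 of all genes against 431 with edgeR.

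In young flies 2 of 28 tested genes differed between the alleles, against 0.332% of all genes, both lower in Lsp2[A10]. Jon99Fi was at 77.4, 77.6 and 124 CPM in Lsp2[A10] and 329, 352 and 427 in Lsp2[B14] (−1.99 ± 0.21, adjusted p = 0.00803). Jon25Bii was at 17.6, 17.2 and 33.4 CPM in Lsp2[A10] against 73.3, 103 and 146 (−2.25 ± 0.33, adjusted p = 0.0311). In both genes all A10 libraries lay below all B14 libraries. Over all alternatives Jon25Bii ranged from −2.66 to −0.29, and its call was lost in 6 of 13. Jon99Fi ranged from −2.27 to −1.40, and its call was lost in 2 of 13. Jon25Bi (−2.16 ± 0.36, adjusted p = 0.0592), Jon66Ci (−2.2 ± 0.40, adjusted p = 0.0785) and Jon99Fii (−1.24 ± 0.20, adjusted p = 0.0568) missed the threshold. Over the 28 genes the median was −0.36, against 0.00 over all genes.

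The young count depended on single libraries and on the test. It was 0 without Lsp2[A10] replicate 1 or 2, 1 without Lsp2[A10] replicate 3 or Lsp2[B14] replicate 2, and 4 without Lsp2[B14] replicate 1. DESeq2 called 10, all lower in Lsp2[A10], and library totals gave 4. Of all genes they called 117 and 39, against 33 in the main fit.

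The comparison of 15 d with 2-3 d flies asks how the genes change with age in each allele. Age and the table in which the libraries were counted cannot be told apart. In Lsp2[A10], 9 of 30 tested genes were higher and 4 lower at 15 d, and in Lsp2[B14] 8 were higher and 6 lower. Of all 10224 genes tested, 44.6% and 38.1% were called, so the members' counts lay near the background. The median change was 0.19 in Lsp2[A10] and 0.05 in Lsp2[B14], against −0.01 and 0.00 over all genes. Scaling to library totals, which moved the median of all genes to 0.15 and 0.11, gave 12 higher and 2 lower in Lsp2[A10], and 10 and 5 in Lsp2[B14].

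Apart from Ser12, the 2 Jon66C genes changed most. Jon66Ci was at 0.196, 0.176 and 0.325 CPM in young Lsp2[A10] and at 32.4, 40.1 and 40.4 at 15 d, a 144-fold change (log2 7.17 ± 0.28, adjusted p = 1.05e-09). In Lsp2[B14] it went from 1.07, 0.778 and 1.34 to 49.7, 35.8 and 37.9 CPM, a 35.2-fold change (log2 5.14 ± 0.21, adjusted p = 1.63e-09). All 15 d libraries lay above all young ones. Jon66Cii went from 0.0654, 0.105 and 0.0929 to 4.23, 2.5 and 3.44 CPM in Lsp2[A10] (log2 4.98 ± 0.41, adjusted p = 1.33e-06) and from 0.17, 0.12 and 0.176 to 6.16, 3.59 and 5.71 in Lsp2[B14] (log2 4.90 ± 0.35, adjusted p = 3.48e-07). The young levels rest on few counts, so the sizes of these folds are uncertain. Jon66Ci had 3, 5 and 7 counts in young Lsp2[A10] and 19, 26 and 53 in young Lsp2[B14]. Jon66Cii had 1, 3 and 2, and 3, 4 and 7. At 15 d in the Lpp[TS] lines, counted in another table, Jon66Ci was at 1.21 and 3.46 CPM in Lpp[TS]>w1118.

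Jon99Fi rose with age in both alleles and by different amounts. It went from 77.4, 77.6 and 124 to 513, 644 and 514 CPM in Lsp2[A10] (log2 2.42 ± 0.19, adjusted p = 9.15e-07) and from 329, 352 and 427 to 733, 649.8 and 618 in Lsp2[B14] (log2 0.74 ± 0.18, adjusted p = 0.00712). The age groups did not overlap in either allele. The difference between these changes was 1.68 ± 0.26 (adjusted p = 0.0203), the only 1 of 30 genes called in the interaction of age and allele, against 0.274% of all genes. It was not called without Lsp2[A10] 15 d replicate 2, Lsp2[A10] 2-3 d replicate 1 or 2, Lsp2[B14] 15 d replicate 3 or Lsp2[B14] 2-3 d replicate 2, where it was 1.56 to 1.72. Without Lsp2[B14] 15 d replicate 1 the interaction called 2 genes, and DESeq2 called 4 (104 of all genes, against 28 with edgeR).

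Its neighbour Jon99Fii was called higher at 15 d in Lsp2[A10] (0.47 ± 0.17, adjusted p = 0.0409) and lower in Lsp2[B14] (−0.51 ± 0.17, adjusted p = 0.0353). The difference between the 2 alleles missed the threshold (0.98 ± 0.25, adjusted p = 0.186). Summing Jon99Fi and Jon99Fii gave −0.08 in Lsp2[B14], which was not called. Jon74E, low throughout, rose by 0.84 ± 0.19 and 0.83 ± 0.19.

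Genes lower at 15 d in both alleles were epsilonTry, iotaTry and Ser8. EpsilonTry went from 719.9, 762 and 1033 to 439, 469 and 381 CPM in Lsp2[A10] (log2 −1.12 ± 0.15, adjusted p = 0.000112) and from 966, 1043 and 1207 to 440.3, 572 and 500.1 in Lsp2[B14] (log2 −1.20 ± 0.15, adjusted p = 7.34e-05). No library of 15 d reached the lowest young library. Called in Lsp2[A10] alone were Jon25Bii (0.88), Jon44E (0.71), Jon65Ai (0.76), Jon99Cii (0.73) and thetaTry (−0.49). Called in Lsp2[B14] alone were Jon65Aii (−0.78), zetaTry (−0.51), etaTry (0.54), kappaTry (0.56) and lambdaTry (0.52), besides Ser12. The interaction called none of these 11 genes. IotaTry changed by −0.91 and −0.68, and Ser8 by −0.81 and −1.94. The abundant alphaTry, yip7 and Jon65Aiv were not called with age in either allele (alphaTry −0.06 ± 0.15 and 0.09 ± 0.15, yip7 −0.06 ± 0.16 and −0.12 ± 0.16).

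Ser12 had 1 count in all 6 young total RNA libraries together. In Lsp2[B14] it had 43, 26 and 63 counts at 15 d, and the rise was called (adjusted p = 9.92e-05). Its call, and those of Jon66Ci and Jon66Cii, held in every alternative fit that could be run.

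Other lists moved with age. Of 13 carbohydrases, 7 were higher and 1 lower at 15 d in Lsp2[A10], and 11 were higher and 1 lower in Lsp2[B14] (tobi, an alpha-glucosidase, 3.50 ± 0.24). Of 14 other midgut proteases and lipases, 1 was higher and 2 lower in Lsp2[A10], and 1 and 3 in Lsp2[B14]. Enterocyte markers were higher for 3 of 5 in Lsp2[A10] and 5 of 5 in Lsp2[B14], with summed levels of 232 to 265 CPM in young Lsp2[A10] and 253 to 298 in young Lsp2[B14], against 342 to 363 and 492 to 511 at 15 d. Muscle markers were lower for 4 of 4 in both alleles, from 4555 to 5080 and 5929 to 6061 CPM down to 751 to 961 and 914 to 1117.7. The part of these shifts in the protease changes was not tested.

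**Figure D3:**
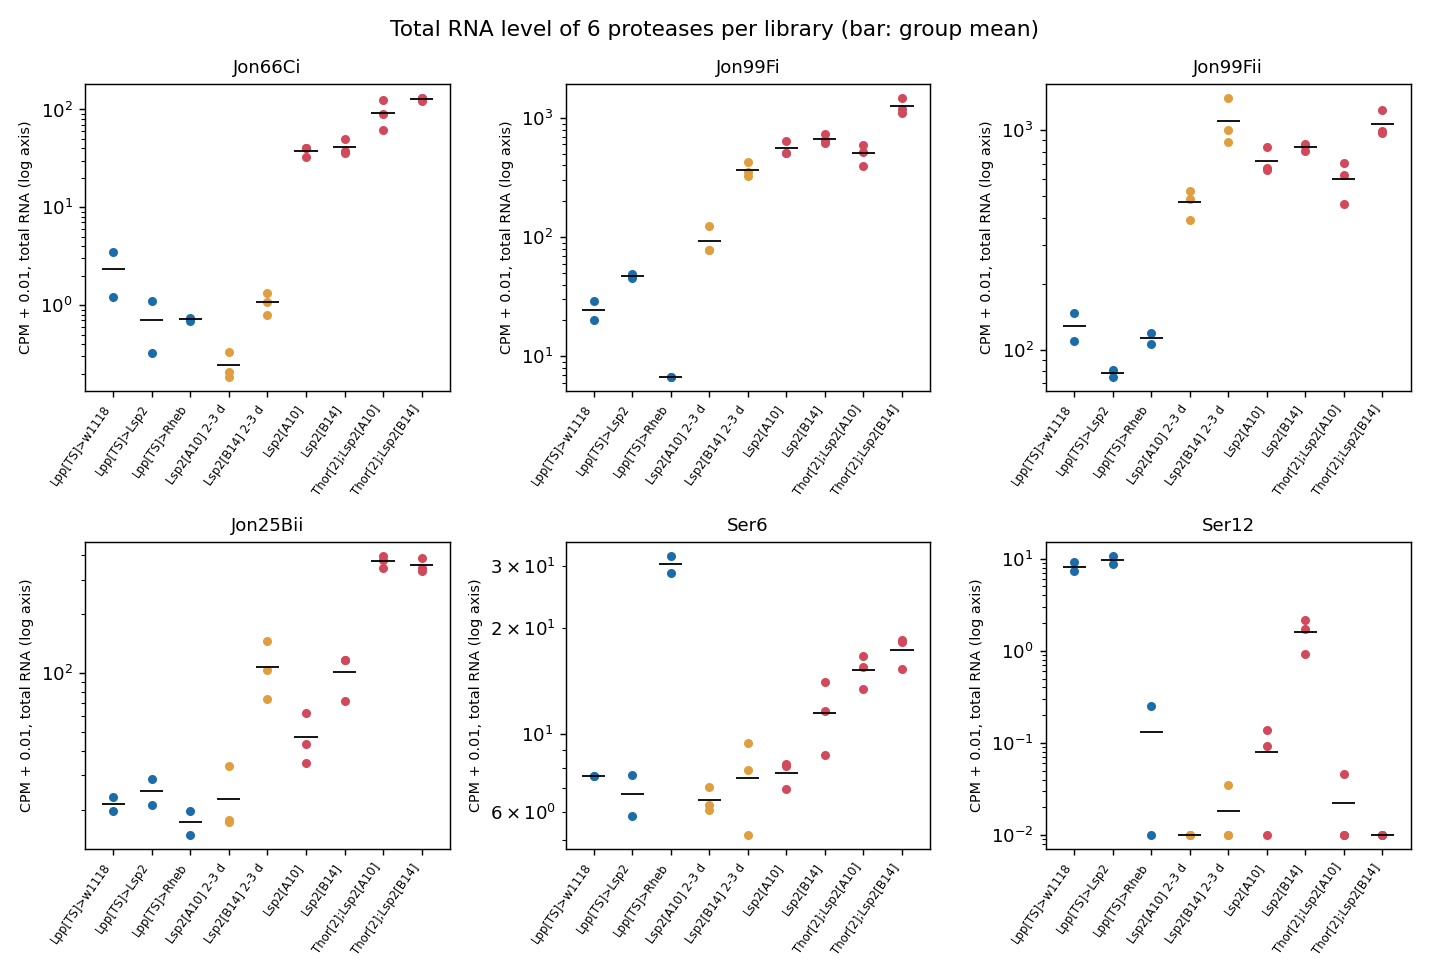
Total RNA level of 6 protease genes in each library (points, CPM + 0.01 on a log axis) by genotype and age, with black bars for group means. Blue marks the Lpp[TS] lines, orange young flies and red the 15 d allele lines; Jon66Ci separates orange from red in both alleles, Ser6 is highest in Lpp[TS]>Rheb, and Ser12 lies at or near 0 in most groups.

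The Lpp[TS]>Rheb line asks what an mTORC1 activator driven by the fat body element does. Against Lpp[TS]>w1118, 4 of 28 tested genes differed in total RNA, against 1.53% of all genes, and the median change was 0.21, against −0.04 over all genes. Ser6 was at 7.58 and 7.59 CPM in the 2 libraries of Lpp[TS]>w1118 and 32 and 28.5 in those of Lpp[TS]>Rheb (log2 2.05 ± 0.19, adjusted p = 0.0166). The chymotrypsin-like yip7 was at 382 and 373 CPM in Lpp[TS]>w1118 against 734 and 709 (log2 0.99 ± 0.12, adjusted p = 0.0251). In both genes the Rheb libraries lay above the controls without overlap, but with 2 libraries each this adds little. Of all 31 genes, 12 lay wholly above and 9 wholly below Lpp[TS]>w1118.

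Jon99Fi was lower, at 6.74 and 6.71 CPM against 20 and 29.2 (log2 −1.82 ± 0.21, adjusted p = 0.022), while its neighbour Jon99Fii was at 119 and 106 CPM against 109 and 146 and was not called (−0.12 ± 0.19, adjusted p = 0.818). Ser12 had 0 and 6 counts in Lpp[TS]>Rheb against 190 and 152 in Lpp[TS]>w1118 (log2 −6.14 ± 0.95, adjusted p = 0.0483). These groups too did not overlap, which again adds little. The trypsins included no call, with alphaTry at 0.44 ± 0.16 and thetaTry at 0.60 ± 0.13 (adjusted p = 0.349 and 0.121).

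All 4 calls rested on the full set of libraries: without either Lpp[TS]>w1118 replicate or either Lpp[TS]>Rheb replicate 0 of the genes were called. There Ser6 was at 1.92 to 2.16, yip7 at 0.92 to 1.04, Jon99Fi at −2.07 to −1.54 and Ser12 at −10.74 to −5.05. A fit of only these 4 libraries called 7 genes higher and 4 lower. It called 2863 of all genes (1608 higher, 1255 lower), against 184 in the main fit. Among the other lists, 2 of 13 carbohydrases were higher (tobi 1.55 ± 0.19, Mal-B2 2.2 ± 0.22), and 1 of 14 other midgut proteases and lipases (CG10477 1.69 ± 0.15). Enteroendocrine markers (0 of 8 called) summed to 272 to 305 CPM against 123 to 129.8, and male accessory gland markers to 0 against 0.965 to 1.25. Of the enterocyte markers 1 of 5 was higher (summed level 221 to 229.9 CPM against 176 to 184). Of the ovary and eggshell markers 1 of 5 was lower, with a median log2 change of −3.82 (summed level 137 to 148 CPM against 209 to 225). Their part in the protease differences was not tested.

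In Lpp[TS]>Lsp2 against Lpp[TS]>w1118, edgeR called 0 of 28 genes in total RNA, against 0.0166% of all genes. At an unadjusted p under 0.05 there were 6 genes (465 of all genes), and DESeq2 called 1 (73 of all genes, against 2 with edgeR). The median was −0.26, against 0.08 over all genes. Jon99Fi was at 48.7 and 45.2 CPM against 20 and 29.2 (0.88 ± 0.20, adjusted p = 0.822), and epsilonTry at 41.4 and 29.6 against 61.5 and 58.4 (−0.81 ± 0.19, adjusted p = 0.833). In both the groups did not overlap, but with 2 libraries each this adds little, and neither gene was called. Of all 31 genes, 2 lay wholly above and 13 wholly below Lpp[TS]>w1118. Of 5 tested ovary and eggshell markers 0 were called, at a median of −3.56, and their part in the protease values was not tested. The 2 Lpp[TS]>Lsp2 libraries differed from each other more than any other replicate pair (a chi-square of 143 per degree of freedom over genes). Leaving out either Lpp[TS]>Lsp2 replicate left 1 library in that group, and the number of genes called then depended on the replicate left out.

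Ribosome association was described by the ratio of polysome RNA to total RNA, in fits that did not pair the fractions of a replicate. Protease RNA was a larger share of polysomes than of total RNA: the 31 genes took 3.28 to 6.7% of polysome counts in the 15 d allele lines and 1.45 to 4.12% in young flies. In the 15 d allele lines 27 of 31 genes were higher in polysomes and Ser6 was lower, against 82.3% of all genes called (41.8% higher), with a median of 1.23 against 0.05 over all genes. In young flies 18 of 28 were higher and 4 lower (81.6% of all genes called, 40.3% higher), with a median of 0.63 against −0.02. In the Lpp[TS] lines 13 of 29 were higher and none lower (48.5% called, 24% higher), with a median of 0.49 against −0.04.

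Jon99Cii had the highest ratio among the Jonah genes in each table. At 15 d in Lsp2[A10] it was at 6183, 6280.1 and 5131 CPM in polysomes against 1294, 1463 and 1277 in total RNA, and its ratio over all 15 d allele lines was 2.56 ± 0.09 (adjusted p = 4.01e-19). It was 2.46 ± 0.21 in young flies and 1.23 ± 0.21 in the Lpp[TS] lines. Its cluster neighbour Jon99Ci was not called in any of the 3 tables (−0.05 ± 0.14, −0.38 ± 0.24 and −0.43 ± 0.17). In polysomes of Lsp2[A10] Jon99Ci was at 180.3, 253 and 200.2 CPM and in total RNA at 118, 201 and 162, which overlap. With the replicate as a block, which sets each polysome library against the other fraction of the same number, Jon99Ci was called lower in young polysomes (adjusted p = 3.82e-05).

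Trypsin RNAs ranged widely in the same ratio. At 15 d it was 3.76 for deltaTry, 2.15 for epsilonTry, 2.12 for iotaTry and 1.83 for betaTry, but 0.92 for alphaTry, 0.77 for lambdaTry and 0.52 for kappaTry, all called. The young values were 3.38, 1.86, 1.55, 1.55, 0.72, 0.07 and 0.69 in the same order, with lambdaTry not called (adjusted p = 0.691). Ser6 was the exception on the low side, at −0.98 ± 0.10 (adjusted p = 3.54e-09) at 15 d and −0.60 ± 0.17 (adjusted p = 0.00451) in young flies. Jon65Aiv (−0.50), Jon99Fi (−0.46) and Jon99Fii (−0.66) were also lower in young polysomes. The Lpp[TS] count of 13 was 6 without the replicate 1 libraries of Lpp[TS]>w1118 and 8 without those of Lpp[TS]>Rheb replicate 2.

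The ratio of polysome to monosome RNA compares messages under several ribosomes with those under 1. At 15 d, 26 of 31 genes were higher in polysomes in the allele lines, against 37.7% of all genes called (20.1% higher), with a median of 0.78 against −0.07. In young flies 1 was higher, epsilonTry (0.75 ± 0.19, adjusted p = 0.00622), and 7 were lower, against 43.3% of all genes called (21.3% lower), with a median of −0.18 against 0.00. The 7 were Jon74E, Jon99Ciii, Jon99Fi, deltaTry, iotaTry, kappaTry and lambdaTry, from −0.99 for Jon74E to −0.43 for kappaTry. Library totals, which moved the median of all genes to 0.15, gave 6 higher and 6 lower in young flies. The 7 lower of 28 lay near the background. With the replicate as a block 7 were higher and 14 lower, and the background above belongs to the fit without the block. The change of this ratio between the ages was not tested.

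In the Lpp[TS] lines 5 of 29 genes were higher in polysomes than in monosomes (26.6% of all genes called, 14.8% higher). With the replicate as a block 8 were higher, and that background belongs to the fit without the block. The 5 called without it were Jon65Aii, epsilonTry, etaTry, thetaTry and yip7. Monosome values of Lpp[TS]>Lsp2 replicate 1 were high for many of the genes, for example 1685 and 548 CPM for betaTry in its 2 replicates, and without that replicate 15 genes were called. The count was 1 and 2 without Lpp[TS]>w1118 replicate 1 and 2, and 3 and 2 without Lpp[TS]>Rheb replicate 1 and 2.

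**Figure D4:**
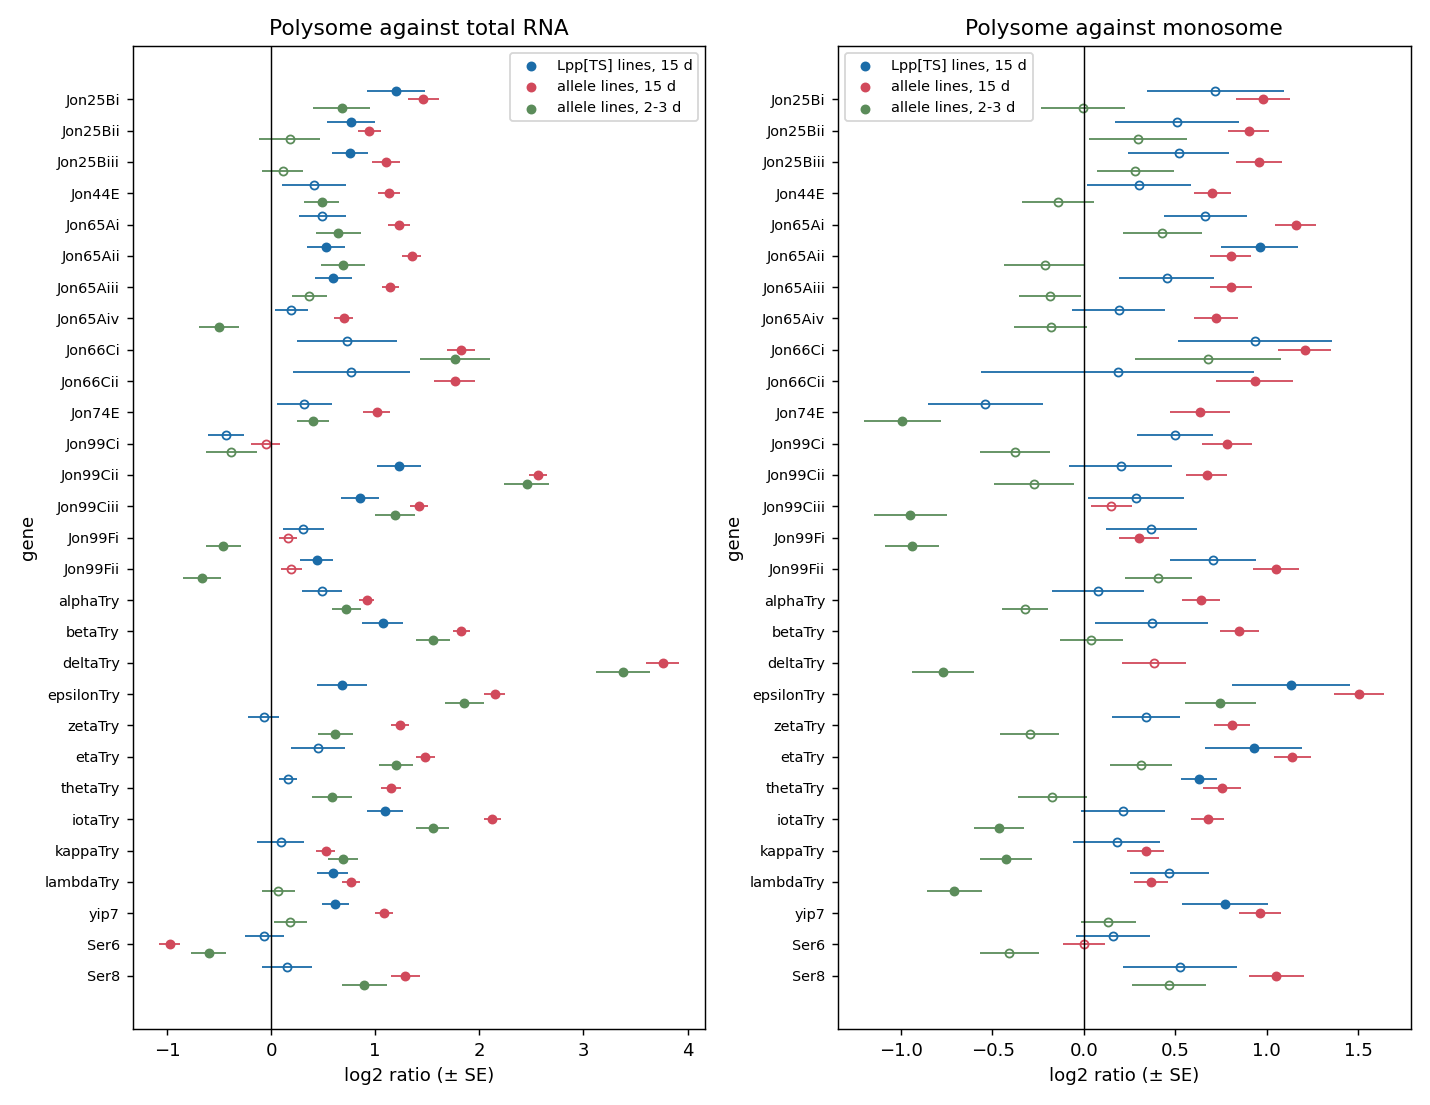
Log2 ratio (horizontal axis, bars ± SE) of polysome to total RNA on the left and of polysome to monosome RNA on the right for each gene except gammaTry and Ser12, in the Lpp[TS] lines, the 15 d allele lines and the young allele lines. Filled points are genes called; the 15 d allele lines lie right of 0 for nearly all genes in both panels, and young flies scatter on both sides of 0 in the right panel.

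The change of the polysome to total ratio between groups, the translational efficiency (TE), was tested as an interaction of fraction and group. With Thor[2], over both Lsp2 alleles, TE was lower for 15 of 31 genes and higher for Ser12, against 56.2% of all genes called (30.3% lower), with a median of −0.54 against −0.03. Ser6 changed most among the 15, by −1.87 ± 0.21 (adjusted p = 6.80e-08). In total RNA it was at 14, 8.68 and 11.5 CPM in Lsp2[B14] and 18.2, 18.5 and 15.3 with Thor[2], while in polysomes it was at 8.6, 10.7 and 10.7 against 3.25, 3.44 and 4.73. Total RNA was higher and polysome RNA lower with Thor[2], with no overlap in either.

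KappaTry, with 52.9, 66 and 53.7 CPM in total RNA of Lsp2[A10] against 125, 131 and 129 with Thor[2], was at 88.4, 103 and 99.6 against 96.6, 77.1 and 90.4 in polysomes. Its TE changed by −1.26 ± 0.17 (adjusted p = 1.49e-06). Jon99Ci changed by −1.40 ± 0.28, alphaTry and Jon99Fi by −0.93 ± 0.14 and −0.93 ± 0.18, Jon25Biii by −0.97 ± 0.26 and Jon65Aiv by −0.84 ± 0.17. In polysomes alphaTry lay lower with Thor[2] in both alleles without overlap, at 4536, 4670.2 and 4274 CPM against 3066, 2942 and 3017 in Lsp2[A10] and at 5491, 7753 and 6461 against 5358, 4669.5 and 4566 in Lsp2[B14]. Genes that were called higher in total RNA without a called TE change include Jon66Ci (0.02 ± 0.27), deltaTry (0.03 ± 0.42) and epsilonTry (0.14 ± 0.19). In polysomes Jon66Ci was at 144, 178 and 136 CPM in Lsp2[B14] and 479.9, 389 and 489 with Thor[2], without overlap. The TE call of Ser12 rests on at most 2 counts in a Thor[2] polysome library. Leaving out 1 replicate at a time gave 15 to 19 calls.

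Other lists moved in TE with Thor[2] as well. TE was lower for 6 of 14 other midgut proteases and lipases (median −0.42) and for 5 of 8 enteroendocrine markers, with 1 higher (median −0.65). It was lower for 4 of 5 fat body markers (−0.82), 3 of 4 muscle markers (−1.10) and both spermatheca markers (−1.46). Of 13 carbohydrases 3 were lower and 1 higher, and of 5 enterocyte markers 2 were lower and 2 higher. The part of these lists in the protease TE values was not tested.

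With age, over both alleles, TE was higher at 15 d for 23 of 31 genes and lower for none, against 46.7% of all genes called (28.8% higher), with a median of 0.90 against 0.13. The median falls on Ser12, which had almost no counts in young flies (0.90 ± 2291). Jon66Cii, called at 1.61 ± 0.64, had at most 11 counts in a young library, and its call was lost in 13 of 19 alternatives. Library totals moved the median of all genes to −0.02 and that of the proteases to 0.74, with 21 called. Jon65Aiv changed most among the abundant genes, by 1.71 ± 0.25 (adjusted p = 1.66e-05). Its polysome level was 1017, 1321 and 1605 CPM in young Lsp2[A10] and 5162, 4977 and 4373 at 15 d, and 1232, 2271 and 1994 against 4713, 7087 and 5512 in Lsp2[B14]. All 15 d libraries lay above all young ones, while its total RNA was not called with age. Jon25Biii changed by 1.57 ± 0.27, Jon99Fii by 1.37 ± 0.24, yip7 by 1.26 ± 0.21 and Jon99Fi by 1.18 ± 0.21. The genes with no called change include Jon66Ci (0.14 ± 0.41), Jon99Cii (0.16 ± 0.24) and epsilonTry (0.32 ± 0.24). With the replicate as a block epsilonTry was called higher (adjusted p = 0.0323). Leaving out 1 replicate at a time gave 19 to 23 calls.

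Other lists moved in TE with age too. It was higher at 15 d for 9 of 13 carbohydrases (median 0.79) and 9 of 14 other midgut proteases and lipases (0.88), with none lower in either list. Of the ovary and eggshell markers 4 of 5 were higher (0.93), and so were 4 of 5 fat body markers (0.65). Of 5 enterocyte markers 4 were higher and 1 lower (0.56). The part of these lists in the protease TE values was not tested.

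Between the Lsp2 alleles edgeR called no TE change of a protease gene without a replicate block. At 15 d it called 0 of 31, with 5 at an unadjusted p under 0.05 and 0 with DESeq2, against 0% of all genes. Of all 11062 genes 756 had an unadjusted p under 0.05, and DESeq2 called 71. The medians were −0.37 for the proteases and 0.02 over all genes, and 30 of 31 values were below 0, with Jon99Cii at −0.58 ± 0.23 (adjusted p = 0.655). With Thor[2] it called 0 of 31, with 9 at an unadjusted p under 0.05 and 2 with DESeq2, against 0.0904%. Of all genes 1121 had an unadjusted p under 0.05 and DESeq2 called 71, and with the replicate as a block edgeR called 1 protease gene, Jon99Ciii (adjusted p = 0.0426), lower in A10. The medians there were −0.48 and −0.01, and without the block Jon99Ciii was at −1.0 ± 0.24 (adjusted p = 0.0934). In young flies it called 0 of 28, with 6 at an unadjusted p under 0.05 and 1 with DESeq2, against 0.0687%. Of all 10185 genes 2221 had an unadjusted p under 0.05, and DESeq2 called 529. With the replicate as a block, edgeR called 14 protease genes, all lower in A10, and 1589 of all genes in place of 7. The medians were −0.57 and 0.04, etaTry was at −1.02 ± 0.32 (adjusted p = 0.12), and 3 genes were called without Lsp2[B14] replicate 1.

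In the Lpp[TS] lines edgeR called 0 of 29 TE changes with Lsp2 and 0 with Rheb, against 0% of all genes in each. At an unadjusted p under 0.05 there were 0 and 2 (285 and 179 of all 12796 genes), and DESeq2 called 0 in each (1 and 4 of all genes). The medians were 0.31 and 0.03, against 0.01 and 0.04 over all genes. ThetaTry was at −0.57 ± 0.21 in Lpp[TS]>Rheb and alphaTry at 0.58 ± 0.47 in Lpp[TS]>Lsp2.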

How the data were processed

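The deposited files were 3 tables of whole-number counts per FlyBase gene, 1 for the Lpp[TS] lines, 1 for the 15 d allele lines and 1 for young flies. Per the submitters' processing notes, fastp 0.23.2, Bowtie2 2.3.4.1, STAR 2.2.1, featureCounts 1.6.0, R 4.2.0 and the build BDGP6 were used; strand and multi-mapping settings are not given in the sources used here. The deposited counts were used as they stand, without the authors' own normalization.

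Samples were grouped by the labels. Counts were fitted with edgeR 4.0.16 in R 4.3.3 (filterByExpr, TMM factors, robust quasi-likelihood test, prior count 0.125), once per table and, for age, over the libraries of 2 tables. P-values were adjusted by Benjamini-Hochberg over all genes tested, and 0.05 was the threshold. TE was the interaction of fraction and group. DESeq2 1.42.0, other scalings, filters, a replicate block and each replicate left out were alternatives. The fits were tested on simulated data.

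Named genes were the members called, up to 8 per comparison in full by adjusted p, the 5 members highest per kilobase in each table, and up to 4 genes of each other list; a few further members are named for their neighbours and were chosen after their values were seen. The members and lists were chosen with earlier results of these data known. Per the labels' protocols the fractions came from the same ground flies. Same-numbered fractions of a group were thus taken as pairs in the replicate block, with correlations of their deviations from −0.13 to 0.87. The main fits of fractions and TE did not use these pairs, and the counts that moved with the block are given below. Same-numbered samples of different genotypes or ages were not shown to be pairs, and not every pair of groups deviated together. In total RNA the replicate block joined them, as an alternative only. Depth limits precision: a count of 0 allows up to 3 counts, and this covers counting error only. No sequences were used here.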

Additional observations from a re-analysis of the deposited data

Results flagged for a closer look

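The total RNA change with Thor[2] differed between the Lsp2 alleles for Jon25Bii, by 1.24 on the log2 scale, with the larger rise in Lsp2[A10] (edgeR's interaction test, adjusted p = 0.0333). For Jon99Fi the difference was −1.0 (adjusted p = 0.0261), and for Ser8 it was −1.54 (adjusted p = 0.0256), with the larger rise in Lsp2[B14] for both. The change with age differed between the alleles for Jon99Fi, by 1.68 (adjusted p = 0.0203), with the larger rise in Lsp2[A10]. Jon99Fi was thus flagged in both interactions, which share the 15 d libraries without Thor[2].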

How the results depend on the processing

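The number of all genes called moved in several settings. For the young alleles it was 33 in the main fit, 117 with DESeq2 and 139 with the replicate block. For Rheb it was 184, and 2863 in the fit of only the compared groups. The counts below are of protease genes called, and settings not named kept the count within 1.5 times. DESeq2 gave 1 for Lsp2 against w1118, 11 for the alleles at 15 d, 5 with Thor[2], 10 in young flies, 4 for age by allele, and for TE between alleles 2 with Thor[2] and 1 in young flies. Library totals gave 4 in young flies, and no filter on low counts gave 4 there and 2 for polysome against monosome in the Lpp[TS] lines. The fit of only the compared groups gave 11 for Rheb. The replicate block gave 2 for Rheb, 5 for the alleles with Thor[2], 12 in young flies, 1 and 14 for TE between alleles with Thor[2] and in young flies, and 8 and 21 for polysome against monosome in the Lpp[TS] and young tables; same-numbered samples of different genotypes were not shown to be pairs. A crossed block for Lsp2 against w1118 (correlation of deviations −0.30), chosen after seeing the data, gave 0.

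Summing the copies of 1 stem, also chosen after seeing the data, gave 2 for the alleles at 15 d, 1 for allele by Thor[2], 0 for age by allele and 5 for polysome against monosome in young flies. It reversed Jon65Aii between alleles at 15 d (−0.46), Jon25Bii with age in Lsp2[A10] (−0.24), Jon65Aii (0.093) and Jon99Fi (−0.081) with age in Lsp2[B14], and Jon65Ai and Jon65Aii in young polysomes against total RNA (−0.025). These values belong to the sum of the stem. The planned sum of copies at least 90% identical was not run, since no sequences were used here.

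For Lsp2 and Rheb against w1118, leaving out 1 replicate left 1 library in a group, and the calls in total RNA were not stable. Leaving out 1 replicate at a time gave 3 to 7, 2 to 7 and 0 to 4 for the alleles at 15 d, with Thor[2] and young. It gave 22 to 25 and 26 to 27 for Thor[2] in Lsp2[A10] and Lsp2[B14], and 0 to 5 for the interaction with allele. For age it gave 9 to 13 and 11 to 17, and 0 to 2 for the interaction with allele. For polysome against total it gave 6 to 16, 27 to 30 and 17 to 24 in the Lpp[TS], 15 d and young tables, and against monosome 1 to 15, 25 to 26 and 7 to 10. TE gave 0 to 0 for Lsp2, Rheb and the alleles at 15 d and with Thor[2], 0 to 3 in young flies, 15 to 19 for Thor[2] and 19 to 23 for age. Over single genes and settings, 3489 values kept direction and call, 269 lost the call and 6 reversed. The cause was not tested.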
